A study of Mus musculus with 50 samples.

Results

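Chromatin accessibility in neurons of the ventral hippocampus was compared between mice reared in RF1 and mice reared in RF4 after both had been moved to a common test laboratory. RF stands for rearing facility and TP for time point. All mice were male C57BL/6JRj mice. Their dams came from 1 breeding colony and were allocated to the RFs at random while pregnant, so the pups were born in the RF and lived there until they were moved. The comparison rests on the 5 RF1 and the 5 RF4 libraries of TP2, taken at 14 weeks of age in the test laboratory, which are 10 of the 50 libraries of the series. Littermates killed at 8 weeks of age while still in their RF (TP1, 5 libraries per RF) served as separate libraries of the same facilities. The libraries were chosen by their labels, with 1 mouse per library. The 25 libraries of TP2 were sorted in 5 batches holding 1 library of each RF, so sorting batch and RF were not confounded, whereas TP and sequencing batch cannot be told apart. RF1 housed its mice behind a low barrier in filter-top cages, with a normal light cycle and rats in the same room. RF4 used open-top cages of a larger type and a reversed light cycle. Each RF is 1 facility, so an RF difference is a difference between 2 single facilities with all their features together.

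ATAC-seq reads where an inserted transposase could reach the DNA, so a region with many reads is an open region, most often a promoter or an enhancer in use. Nuclei were sorted for NeuN, a protein of the nuclei of most neurons. The ventral hippocampus holds pyramidal neurons of the CA fields, granule cells of the dentate gyrus and several kinds of interneuron, and takes part in anxiety-like behaviour and stress regulation. Granule cells keep being born in the dentate gyrus of adult mice, and their identity depends on the homeobox factor Prox1. A bulk library sums over these cell types, so more nuclei of one type and more accessible DNA per nucleus of that type cannot be told apart in any result that follows.

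Total counts over the 144465 merged peaks were 35510848, 27142992, 5111223, 23219396 and 34133245 in RF1 replicates 1 to 5 and lay between 20022610 and 33572236 in the 5 RF4 libraries. RF1 replicate 3 was the shallowest of these libraries by far. The libraries labelled RF1 replicates 3 and 5 went against their label in their likeness to other libraries. RF1 replicate 5 had its highest mean correlation with the RF5 libraries (Pearson's r over peaks, mean 0.978) and a mean of 0.93 with the other RF1 libraries. RF1 replicate 3 was nearest to an RF2 library (r = 0.897), and in the Col19a1 peak described below it lay inside the RF2 range. In a check of 16647 well-covered peaks, RF1 replicate 3 differed from 4 of the 5 RF2 libraries by no more than sampling noise, and RF1 replicate 5 from 1 RF5 library and 1 RF2 library. That RF2 library, replicate 5, itself differed from every other RF2 library by more than sampling noise (2.419 to 4.157 times 2 binomial variances). It was kept as RF2 in the fits over all RFs. By the nearest single library, RF1 replicates 1, 2 and 4 were each nearest to another RF1 library, and all RF4 libraries to another RF4 library. By the mean over the other libraries of an RF, RF1 replicates 1, 2 and 4 were nearest to RF4 (r = 0.962 with RF4 and 0.943 with RF1 for replicate 1) and RF1 replicate 3 was nearest to RF5 (r = 0.887). These peaks share depth and base composition, so the correlations are descriptions only. Results are therefore given with all 10 libraries and without RF1 replicates 3 and 5. These 2 libraries were singled out from the same counts, so a larger number of differences without them can follow from that choice itself. Within RF4, 4 of the 10 pairs of libraries also differed by no more than sampling noise. They come from separate mice by their labels and were kept apart, and the count with such libraries joined is given beside the main one.

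A merged peak was called a differentially accessible region (DAR) when its adjusted p from edgeR's quasi-likelihood test was below 0.01 and its log2 fold change of RF1 over RF4 was at least 0.5 in size, that is 1.41-fold. Promoter peaks lay within 2 kb of the start of a protein-coding gene. Levels are CPM, the count of a peak per 1 M counts in all peaks of the library after TMM scaling, n is 5 libraries per RF unless stated, and fold changes carry their standard error (SE). Each SE was derived from edgeR's test, as the size of the log2 fold change divided by the square root of the F statistic. The p-values of edgeR and these SEs measure the spread between all libraries in a fit. Unless stated, a fit also holds the libraries of RF2, RF3 and RF5, so its spread is not that of the RF1 and RF4 libraries alone.

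The 3 windows printed here show what kind of DNA the promoter results concern. They are the RefSeq promoter windows (GRCm38.p6, 250 bases before to 50 bases after the start) of the promoter DAR with the largest fold, Mettl7b, of the dentate granule cell gene Dsp and of a promoter that was lower in RF1, Erich6b. Dsp was picked for display after its values were seen. Searched on both strands were CACGTG (the E-box of the clock factors), TGACGTCA (the CREB site), TGANTCA (the AP-1 site), GGGCGG (the GC box), CCAAT and TATAAA. Capitals mark a match. The Mettl7b window, chr10:128960939-128961238 on the minus strand, held none of the 6. The Dsp window, chr13:38151044-38151343 on the plus strand, held 4 GC boxes, 1 of them on the other strand as ccgccc. The Erich6b window, chr14:75641972-75642271 on the plus strand, held 1 CCAAT on the other strand.
Mettl7b: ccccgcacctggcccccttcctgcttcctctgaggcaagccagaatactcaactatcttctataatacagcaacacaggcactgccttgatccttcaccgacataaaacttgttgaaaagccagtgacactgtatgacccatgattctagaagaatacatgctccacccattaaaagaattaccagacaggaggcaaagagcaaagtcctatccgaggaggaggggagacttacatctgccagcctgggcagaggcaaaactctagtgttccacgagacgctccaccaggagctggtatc
Dsp: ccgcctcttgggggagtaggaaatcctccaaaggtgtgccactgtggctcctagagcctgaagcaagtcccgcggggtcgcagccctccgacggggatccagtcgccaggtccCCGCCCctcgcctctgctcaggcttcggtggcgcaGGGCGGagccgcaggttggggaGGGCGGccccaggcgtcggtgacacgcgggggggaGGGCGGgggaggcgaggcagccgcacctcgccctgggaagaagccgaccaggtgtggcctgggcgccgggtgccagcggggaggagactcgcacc
Erich6b: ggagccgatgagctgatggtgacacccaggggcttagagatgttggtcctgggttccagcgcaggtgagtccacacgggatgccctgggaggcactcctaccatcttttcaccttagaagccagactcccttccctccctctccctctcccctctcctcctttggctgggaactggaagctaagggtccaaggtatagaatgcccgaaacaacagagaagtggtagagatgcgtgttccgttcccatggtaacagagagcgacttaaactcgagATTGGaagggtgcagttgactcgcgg
The GC content of the Dsp window was 73.0%. Of all 32851 RefSeq windows, 35.7% held GGGCGG and 37.4% held CCAAT, against a median GC content of 52.7%. Of the 15 windows that overlapped promoter DARs higher in RF1, 5 (33.3%) held GGGCGG, 4 (26.7%) CCAAT, 3 TATAAA, 1 CACGTG and none TGANTCA or TGACGTCA. These are matches of letters in a short window and not sites shown to be bound.

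With all 10 libraries, few regions differed between RF1 and RF4 after the move. Of 144449 peaks tested, 441 were DARs (0.305%), of which 331 were higher in RF1 (0.229%) and 110 were lower in RF1 (0.0762%). The median size of their log2 fold change was 0.65, and the median over all peaks was 0.00. DARs were mostly outside promoters: 261 of 51446 peaks outside genes, 160 of 80315 peaks inside genes and 20 of 12688 promoter peaks. Among promoter peaks, 18 were higher in RF1 (0.142%) and 2 were lower. The authors' own peak calls, made in each library separately with MACS2, follow in part from the same reads. DARs higher in RF1 overlapped a called peak in a mean of 4.24 RF1 libraries and 3.33 RF4 libraries, and DARs lower in RF1 in 2.73 RF1 libraries and 4.49 RF4 libraries. Over all peaks tested the means were 2.87 RF1 libraries and 3.00 RF4 libraries. The number of DARs depended strongly on the libraries used. It was 98 without RF1 replicate 4, 181 without RF1 replicate 1, 220 without RF1 replicate 2, 794 without RF1 replicate 3 and 2235 without RF1 replicate 5. Without an RF4 library it was 225 (replicate 1), 193 (replicate 2), 288 (replicate 3), 194 (replicate 4) and 395 (replicate 5). Fitted on the RF1 and RF4 libraries alone, in place of all 25 libraries of TP2, 1 DAR was left, the Col19a1 peak, and 28 were left when libraries within sampling noise were joined. In the test on all libraries 24078 peaks had an unadjusted p under 0.05.

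**Figure D1:**
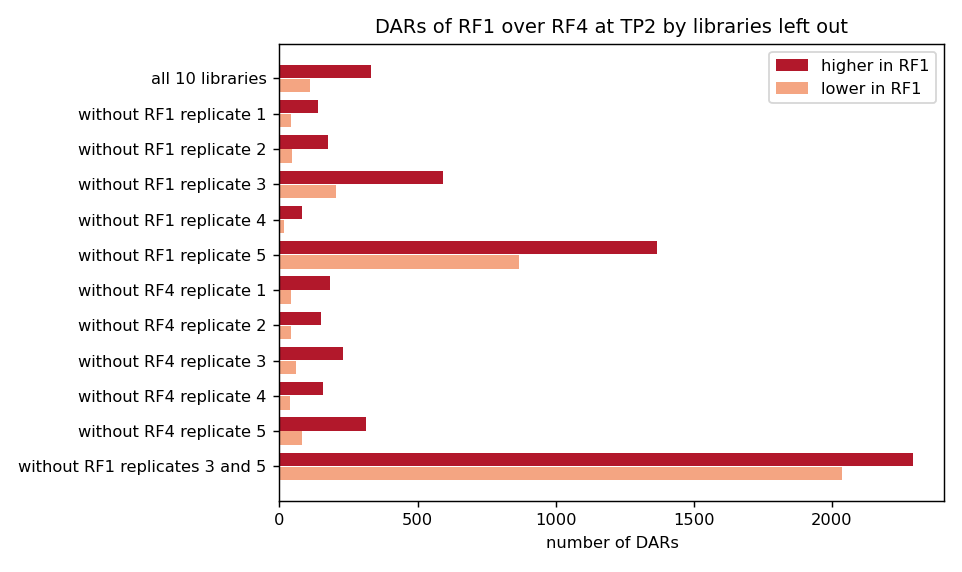
Number of DARs of RF1 over RF4 at TP2 (x axis) with all 10 libraries, with each library left out in turn and without RF1 replicates 3 and 5 (y axis); dark bars are DARs higher in RF1 and light bars DARs lower in RF1. The count runs between 98 without RF1 replicate 4 and 2235 without RF1 replicate 5, and is 4332 without RF1 replicates 3 and 5.

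Some promoters of dentate granule cell markers were more accessible in RF1. The list holds 11 genes with 14 promoter peaks. Of these, 4 peaks were DARs, all higher in RF1 (against 0.142% of all promoter peaks), a count that was 0 with libraries within sampling noise joined and in the fit on RF1 and RF4 alone. The median log2 fold change over the 14 peaks was 0.41, against 0.07 over all promoter peaks. All 14 had a positive fold change with an unadjusted p under 0.05, against 2661 positive promoter peaks with such a p among the 12688. Over promoters and gene bodies together, 7 of 200 peaks were DARs, all of them higher in RF1 (against 0.149% of all such peaks), with a median log2 fold change of 0.24 against 0.01 over all 93003 such peaks. The list was drawn up with earlier results of these data known and has no test of its own.

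Prox1 encodes the homeobox factor that granule cells need to form and to keep their identity. The peak at chr1:190172406-190176291, 1579 bases upstream of its start, had 21.5, 22.1, 19.6, 22.5 and 15.3 CPM in RF1 replicates 1 to 5, against 15.4, 13, 13.3, 13.3 and 12 CPM in RF4. In this peak 4 RF1 libraries lay above all RF4 libraries, and RF1 replicate 5 fell just under the highest RF4 library. The log2 fold change was 0.59 ± 0.09 (SE; edgeR adjusted p = 3.1e-05), and Prox1 stayed a DAR with each library left out in turn. The call of this peak was lost after subtraction of the means of 1 Mb regions (log2 fold change 0.44). It was also lost with libraries within sampling noise joined (0.56) and in the fit on RF1 and RF4 alone. At the start of Prox1 itself a second peak had 13.6, 14.4, 12.4, 13.2 and 13.2 CPM in RF1, against 9.64, 8.61, 9.57, 10.2 and 9.94 CPM in RF4. The groups did not overlap there, and the log2 fold change of 0.50 ± 0.09 missed the size a DAR needs when unrounded (edgeR adjusted p = 0.000484). Dsp encodes desmoplakin, a protein of desmosomes that marks granule cells in the mouse hippocampus. Its promoter peak had 12, 10.3, 7.59, 9.07 and 8.18 CPM in RF1, against 5.39, 6.24, 6.48, 7.25 and 5.58 CPM in RF4, with no overlap between the groups (log2 fold change 0.65 ± 0.12 SE; edgeR adjusted p = 0.000885). Of the 6 Dsp peaks tested, 3 were DARs, the most of any gene (seen after the fact), with log2 fold changes between 0.65 and 1.01. Over all peaks tested, 0.229% were DARs higher in RF1. The call of the Dsp promoter was lost without RF1 replicate 1 (adjusted p = 0.0163) and without RF4 replicate 1 (adjusted p = 0.011).

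C1ql2 encodes a secreted protein that organises synapses of the mossy fibres, the axons of granule cells. Its peak at chr1:120341951-120342770, 1369 bases past its start, had 4.45, 4.44, 3.99, 3.78 and 3.82 CPM in RF1, against 2.37, 2.37, 2.61, 2.60 and 2.36 CPM in RF4. Here every RF1 library, including replicates 3 and 5, was above every RF4 library (log2 fold change 0.75 ± 0.15 SE; edgeR adjusted p = 0.00285). MACS2 called this peak in only 1 RF1 library and in 0 RF4 libraries. Leaving out 1 of 6 libraries (RF1 replicate 1, 2 or 4, RF4 replicate 1, 2 or 5) took the adjusted p to between 0.0122 and 0.017, with log2 fold changes between 0.69 and 0.75. Lct encodes lactase and served as a granule cell marker on the list. Its promoter peak had 7.22, 7.75, 4.59, 6.85 and 4.27 CPM in RF1, against 3.46, 3.79, 4.16, 2.70 and 4.24 CPM in RF4. RF1 replicates 3 and 5 were close to the highest RF4 libraries and the other RF1 libraries were well above them (log2 fold change 0.76 ± 0.14 SE; edgeR adjusted p = 0.00106). The Lct call was lost without RF1 replicate 1, 2 or 4 or RF4 replicate 4 (adjusted p between 0.0114 and 0.0148). Stxbp6, which encodes a SNARE-binding protein, had no promoter DAR (log2 fold change 0.41 ± 0.08, under the size a DAR needs). A peak inside Stxbp6, at chr12:44858052-44859333, was a DAR, with 10.5, 12.2, 5.59, 10 and 5.27 CPM in RF1, against 4.12, 4.50, 4.44, 4.15 and 4.06 CPM in RF4 (log2 fold change 1.06 ± 0.14 SE; edgeR adjusted p = 1.58e-05). RF1 replicates 3 and 5 were again the lowest RF1 libraries and still above RF4, and this peak stayed a DAR with each library left out.

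The remaining promoter peaks of the list were not DARs. The peak on the start of C1ql2 had 18.9, 19, 10.4, 19.1 and 17.3 CPM in RF1, against 13.9, 14.3, 11.5, 13.5 and 12.9 CPM in RF4 (log2 fold change 0.41 ± 0.10 SE; edgeR adjusted p = 0.0119), so RF1 replicate 3 was there below every RF4 library and the other RF1 libraries were above. A peak upstream of C1ql2 had 0.48 ± 0.14 with overlapping groups (edgeR adjusted p = 0.0385). Log2 fold changes of the other genes were 0.39 ± 0.08 for Dock10, 0.40 ± 0.11 for Glis3 and 0.40 ± 0.11 for Trpc6. Tdo2 had 0.28 ± 0.12, Maml2 0.26 ± 0.08 and Rfx3 0.17 ± 0.05. Dock10 is an exchange factor for small GTPases, Glis3 and Rfx3 are transcription factors, Trpc6 is a cation channel, Tdo2 breaks down tryptophan and Maml2 is a coactivator of Notch. Summed over the 14 promoter peaks, the list had 248.6, 256.9, 200.1, 250.1 and 227.2 CPM in RF1, against 191.0, 192.2, 191.8, 184.0 and 180.7 CPM in RF4. Every RF1 library was above every RF4 library, with RF1 replicate 3 lowest. RF2 libraries had 197.4 to 203.7 CPM except for RF2 replicate 5 with 223.4 CPM. RF3 libraries had 199.7 to 204.7 CPM and RF5 libraries 207.5 to 218.9 CPM. RF1 replicates 1, 2, 4 and 5 were thus above, and all RF4 libraries below, the range of the other RFs, while RF1 replicate 3 lay inside the RF2 and RF3 ranges. The number of promoter DARs on the list was 1 without RF1 replicate 1 and 2 without RF1 replicate 2. The median over the 14 peaks ranged between 0.34 and 0.49 over these and the other alternatives tried.

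For the other marker lists the summed levels of RF1 and RF4 overlapped. Pan-neuronal promoters summed to 266.0, 268.0, 248.2, 268.5 and 271.2 CPM in RF1, against 238.6 to 255.6 CPM in RF4. Pyramidal neuron promoters summed to 259.9, 258.8, 271.8, 263.8 and 269.3 CPM in RF1, against 240.2 to 259.5 CPM in RF4. All RF1 libraries but replicate 3 (pan-neuronal) or replicate 2 (pyramidal) were thus above all RF4 libraries. Interneuron promoters summed to 142.1 to 178.4 CPM in RF1 and 145.3 to 154.5 CPM in RF4. Astrocyte promoters summed to 65.55, 64.41, 63.91, 64.78 and 56.87 CPM in RF1, against 53.48 to 57.01 CPM in RF4. The astrocyte list had a median log2 fold change of 0.23 over 8 promoter peaks with 0 DARs (edgeR; 2 positive and 1 negative with an unadjusted p under 0.05; 0 DARs by DESeq2), and 4 of its 5 RF1 libraries were above all RF4 libraries. Microglia promoters had 27.41 to 34.54 CPM in RF1 and 31.53 to 34.76 CPM in RF4, and oligodendrocyte promoters 7.586 to 14.45 CPM in RF1 and 8.765 to 12.67 CPM in RF4. Of the defining markers, 9 of 11 oligodendrocyte genes, Mbp, Mog and Sox10 among them, 6 of 10 microglia genes and 6 of 7 endothelial genes had no promoter peak at all. The part of other cell types in the granule cell result was not tested.

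**Figure D2:**
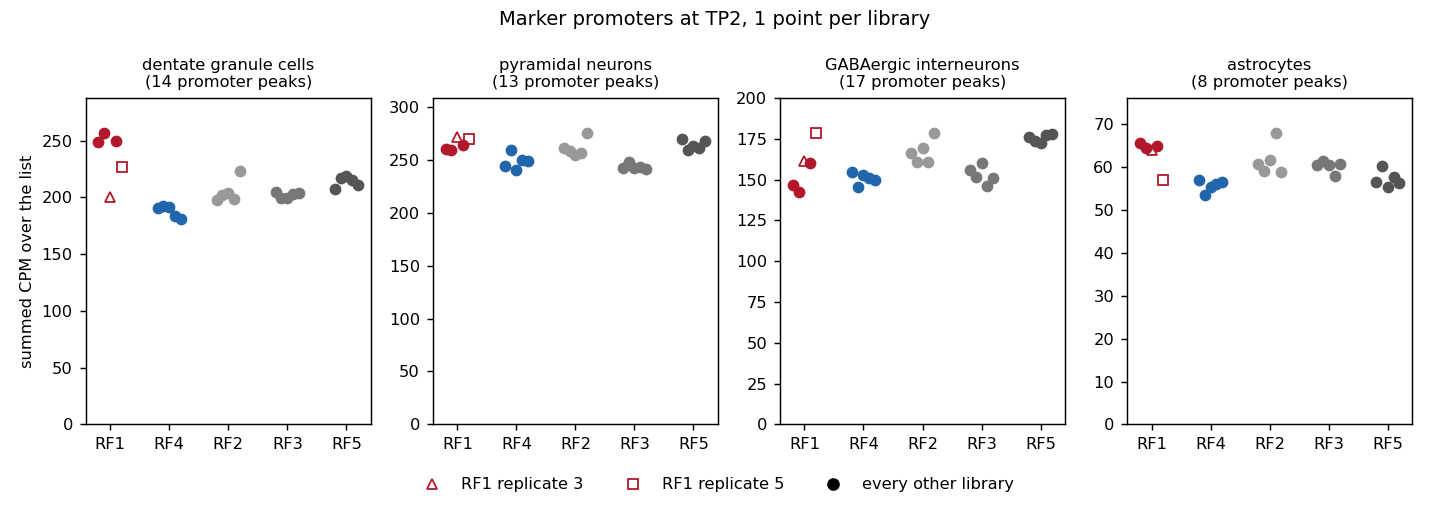
Summed CPM over the promoter peaks of 4 marker lists (y axis) in each library of TP2 (1 point per library) by RF (x axis), with RF1 replicate 3 as an open triangle and RF1 replicate 5 as an open square. For dentate granule cells the RF1 libraries span 200.1 to 256.9 CPM and the RF4 libraries 180.7 to 192.2 CPM, with no overlap.

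Outside that list, 14 further promoter peaks were higher in RF1. The largest fold was at Mettl7b, a methyltransferase of the endoplasmic reticulum, with 4.04, 4.22, 0.999, 4.09 and 1.54 CPM in RF1, against 1.53, 1.54, 0.855, 1.5 and 1.37 CPM in RF4 (log2 fold change 1.20 ± 0.22 SE; edgeR adjusted p = 0.00112). RF1 replicates 1, 2 and 4 were far above RF4, and RF1 replicates 3 and 5 were within or next to the RF4 range. The Mettl7b peak was called by MACS2 in 4 RF1 libraries and in 0 RF4 libraries. With DESeq2 it was not a DAR (log2 fold change 1.18, with no adjusted p given). Matn1, a cartilage matrix protein, had the same shape at 14.1, 16.9, 8.59, 15.1 and 7.82 CPM in RF1, against 8.02, 6.52, 8.11, 7.80 and 8.24 CPM in RF4 (log2 fold change 0.71 ± 0.12 SE; edgeR adjusted p = 0.000616), as did Tagln2, an actin-binding protein, and Hnrnpf, a splicing factor. Tagln2 had 8.11, 6.95, 4.39, 6.63 and 3.91 CPM in RF1, against 3.68, 4.31, 4.03, 3.5 and 2.75 CPM in RF4. Hnrnpf had 17.5, 16, 9.39, 16 and 9.75 CPM in RF1, against 8.76, 9.01, 8.84, 11 and 8.78 CPM in RF4. In these 4 promoters the RF1 mean thus rests on RF1 replicates 1, 2 and 4. The Mettl7b and Tagln2 calls were lost without RF1 replicate 1 (adjusted p = 0.0177 and 0.0347) or without RF1 replicate 4 (adjusted p = 0.0163 and 0.0174), Hnrnpf lost its call without RF1 replicate 1 (log2 fold change 0.50, just under the size a DAR needs), and Matn1 kept its call with each library left out.

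Among the further promoter DARs, those of Jag1, Acvr1c, Tent5c, Gyg, Tmem176a with Tmem176b, and Frmpd1 had all RF1 libraries above all RF4 libraries. Like the other DARs described as without overlap, they were picked as DARs from these same counts. Separation of the groups follows in part from that choice. No share over all promoter peaks is given beside it, so the separation describes these peaks and is no result of its own. Jag1, a ligand of the Notch receptors, had 9.13, 9.08, 8.99, 10.4 and 9.36 CPM in RF1, against 6.18, 5.53, 7.41, 6.25 and 6.81 CPM in RF4 (log2 fold change 0.57 ± 0.10 SE; edgeR adjusted p = 0.000491). The groups did not overlap and Jag1 kept its call with each library left out. Jag1 lost its call after subtraction of the means of 1 Mb regions (log2 fold change 0.45). It also lost it with libraries within sampling noise joined (0.56) and in the fit on RF1 and RF4 alone. Acvr1c, a receptor for activin-like ligands, had 9.53, 11.9, 12.6, 10.5 and 9.69 CPM in RF1, against 7.71, 7.23, 7.58, 5.45 and 7.17 CPM in RF4. Tent5c had 7.10, 6.27, 8.79, 6.05 and 5.63 CPM in RF1, against 4.65, 4.74, 3.95, 3.40 and 4.21 CPM in RF4. Gyg, encoding glycogenin, the primer of glycogen synthesis, had 9.56, 10.2, 13.6, 8.94 and 14.4 CPM in RF1, against 7.58, 7.70, 8.51, 6.55 and 8.30 CPM in RF4. None of these promoters overlapped between the groups, and for Acvr1c, Tent5c and Gyg the highest RF1 library was replicate 3 or 5. Acvr1c kept its call with each library left out, Tent5c lost it without RF4 replicate 4 (log2 fold change 0.56, adjusted p = 0.015), and Gyg lost it without RF1 replicate 3 (0.46, adjusted p = 0.00289), RF1 replicate 5 (0.39, adjusted p = 0.00924), RF4 replicate 4 (0.48, adjusted p = 0.0122) or RF4 replicate 5 (0.49, adjusted p = 0.00868), each time under the size a DAR needs. Tmem176a and Tmem176b share 1 peak between their starts, which had 3.47, 4.37, 3.20, 3.69 and 2.25 CPM in RF1, against 2.02, 2.09, 2.00, 1.3 and 2.09 CPM in RF4 (log2 fold change 0.81 ± 0.18 SE; edgeR adjusted p = 0.00544). The groups did not overlap, and the Tmem176b call was lost without any 1 of 7 libraries (RF1 replicates 1, 2 and 4 and RF4 replicates 1 to 4), with adjusted p between 0.0147 and 0.0466. That call was also lost with DESeq2. Phgdh, the first enzyme of serine synthesis (log2 fold change 0.51 ± 0.10), Frmpd1 (0.53 ± 0.10), Fam181b (0.52 ± 0.12), Rnase2b, of the ribonuclease A family (0.69 ± 0.15), and Lipo3, of the acid lipase family (0.66 ± 0.14), complete the promoters higher in RF1. Of these Frmpd1 was the one without overlap between the groups. Rnase2b had 7.85, 8.32, 3.2, 8.8 and 7.17 CPM in RF1, against 5.26, 4.5, 3.46, 5.65 and 4.57 CPM in RF4, with RF1 replicate 3 below every RF4 library. Lipo3 had 3.99, 5.16, 3.99, 3.65 and 5.6 CPM in RF1, against 3.9, 2.49, 2.93, 2.05 and 2.9 CPM in RF4, with RF1 replicate 4 inside the RF4 range. Phgdh lost its call without RF1 replicate 1 or 4 or RF4 replicate 1 or 3 (log2 fold change 0.42 to 0.48, adjusted p = 0.0109 to 0.0309), Frmpd1 without RF1 replicate 2 or RF4 replicate 1 (0.44 to 0.47, adjusted p = 0.0126 to 0.0173) and Fam181b without 7 of the 10 libraries (0.41 to 0.57, adjusted p = 0.0122 to 0.0896). The Rnase2b and Lipo3 calls were also lost when single libraries were left out, with adjusted p up to 0.0494 for Rnase2b (without RF1 replicate 4) and 0.0375 for Lipo3 (without RF4 replicate 2).

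Only 2 promoter peaks were lower in RF1 with all libraries. Mfsd6l had 2.86, 2.51, 2.60, 3.33 and 2.46 CPM in RF1, against 4.25, 4.42, 4.60, 5.75 and 3.64 CPM in RF4 (log2 fold change -0.69 ± 0.15 SE; edgeR adjusted p = 0.0058). Erich6b had 4.91, 5.35, 6.19, 4.36 and 6.40 CPM in RF1, against 8.41, 7.98, 6.76, 6.95 and 7.17 CPM in RF4 (log2 fold change -0.50 ± 0.11 SE; edgeR adjusted p = 0.007). In both, the groups did not overlap. Each call was lost without any 1 of 7 libraries, with adjusted p up to 0.0521 for Mfsd6l (without RF4 replicate 4) and 0.061 for Erich6b (without RF1 replicate 4), and the Erich6b call also under 7 of the 8 other settings.

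**Figure D3:**
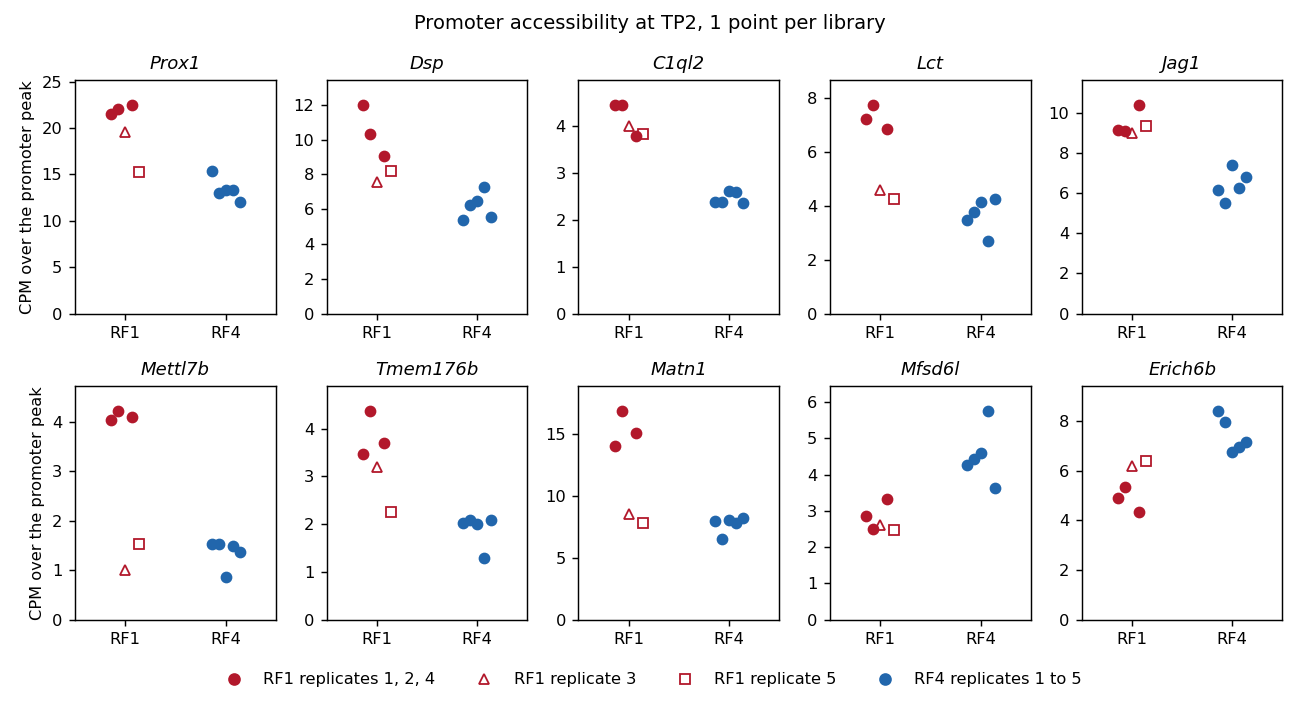
CPM over 10 promoter peaks (y axis) in the 5 RF1 and 5 RF4 libraries of TP2 (x axis), 1 point per library, with RF1 replicate 3 as an open triangle and RF1 replicate 5 as an open square. In Mettl7b and Matn1 these 2 libraries sit at the RF4 level, whereas in Jag1 and C1ql2 all RF1 libraries lie above all RF4 libraries.

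The DARs with the lowest adjusted p lay away from promoters. Among those higher in RF1, a peak far from any gene on chromosome 14, with Olfm4 as its nearest gene 1990952 bases away, had 6.06, 6.23, 7.99, 7.69 and 6.07 CPM in RF1, against 3.68, 3.59, 3.95, 3.45 and 3.46 CPM in RF4 (log2 fold change 0.87 ± 0.12 SE; edgeR adjusted p = 1.58e-05). A peak 20637 bases from Sox4, a SoxC transcription factor of immature neurons, had 9.53, 8.32, 3.79, 8.58 and 5.30 CPM in RF1, against 3.24, 3.87, 3.91, 4.45 and 3.52 CPM in RF4 (log2 fold change 0.96 ± 0.13 SE). RF1 replicate 3 was inside the RF4 range at the Sox4 peak and the highest library at the Olfm4 peak. A peak inside Card6 had a log2 fold change of 1.10 ± 0.16, a peak near Xkr6 1.13 ± 0.16 and a peak near Gm51582 0.66 ± 0.09. The Gm51582 peak was even across RF1 (11.8, 12, 11.8, 12.6 and 10.5 CPM), against 8.06, 7.43, 7.58, 7.35 and 6.96 CPM in RF4.

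Among the DARs lower in RF1, a peak 9589 bases from Sv2b, a synaptic vesicle protein, had 12.5, 11.5, 15.4, 11.8 and 12.9 CPM in RF1, against 20.6, 17.8, 17.6, 19.6 and 19.3 CPM in RF4 (log2 fold change -0.60 ± 0.08 SE; edgeR adjusted p = 1.58e-05). A peak inside Cmah, an enzyme that converts sialic acid, had 1.79, 1.78, 2.20, 2.09 and 2.61 CPM in RF1, against 4.69, 3.99, 3.38, 3.80 and 4.06 CPM in RF4 (log2 fold change -0.94 ± 0.15 SE; edgeR adjusted p = 0.000137). Neither peak overlapped between the groups, and RF1 replicates 3 and 5 were the highest RF1 libraries in both. Peaks near Dglucy (-0.83 ± 0.13) and near Anxa3, an annexin (-0.98 ± 0.16), were also lower. The largest fold of the whole comparison was at a peak of 188 bases at chr1:24612661-24612848, 24739 bases from Col19a1, with 2.57, 3.46, 9.19, 3.02 and 2.31 CPM in RF1, against 21.1, 21.8, 22, 22.2 and 20.2 CPM in RF4 (log2 fold change -2.71 ± 0.28 SE; edgeR adjusted p = 0.000137). RF1 replicate 3 stood apart from the other RF1 libraries at the Col19a1 peak, at a level inside the RF2 range of 2.38 to 10.5 CPM. This stretch of chromosome 1 is known to hold a nuclear copy of mitochondrial DNA, so the origin of a read that fits either place is uncertain. The Col19a1 peak is named for its nearest gene only. All 10 of these peaks remained DARs with each library left out in turn, and the Col19a1 peak was the single one of them that also remained in the fit on RF1 and RF4 alone (adjusted p = 1.75e-11).

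Other gene groups gave no or almost no promoter DARs. Of 19 promoter peaks of the Notch pathway, Jag1 was the only DAR (median log2 fold change 0.14). The promoter peaks of the other 25 lists, 462 in all, held 0 DARs by edgeR and 0 by DESeq2, with 117 positive and 8 negative at an unadjusted p under 0.05 and a median log2 fold change of 0.08. All mice of TP2 shared the light cycle of the test laboratory after the move, and an effect of the rearing light cycle was not tested. The 25 lists include the circadian clock genes (22 peaks, median 0.13, 11 positive with an unadjusted p under 0.05). They also include immediate early genes (21 peaks, median 0.13), stress hormone signalling (17 peaks, median 0.09), heat shock proteins (12 peaks, median 0.06), interferon response (16 peaks, median 0.02), postsynaptic scaffold (27 peaks, median 0.04) and clustered histone genes (40 peaks, median 0.16, 20 positive with an unadjusted p under 0.05). The clock, immediate early and histone lists thus sat slightly above the median of all promoter peaks, and none of their members reached the size and p of a DAR.

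**Figure D4:**
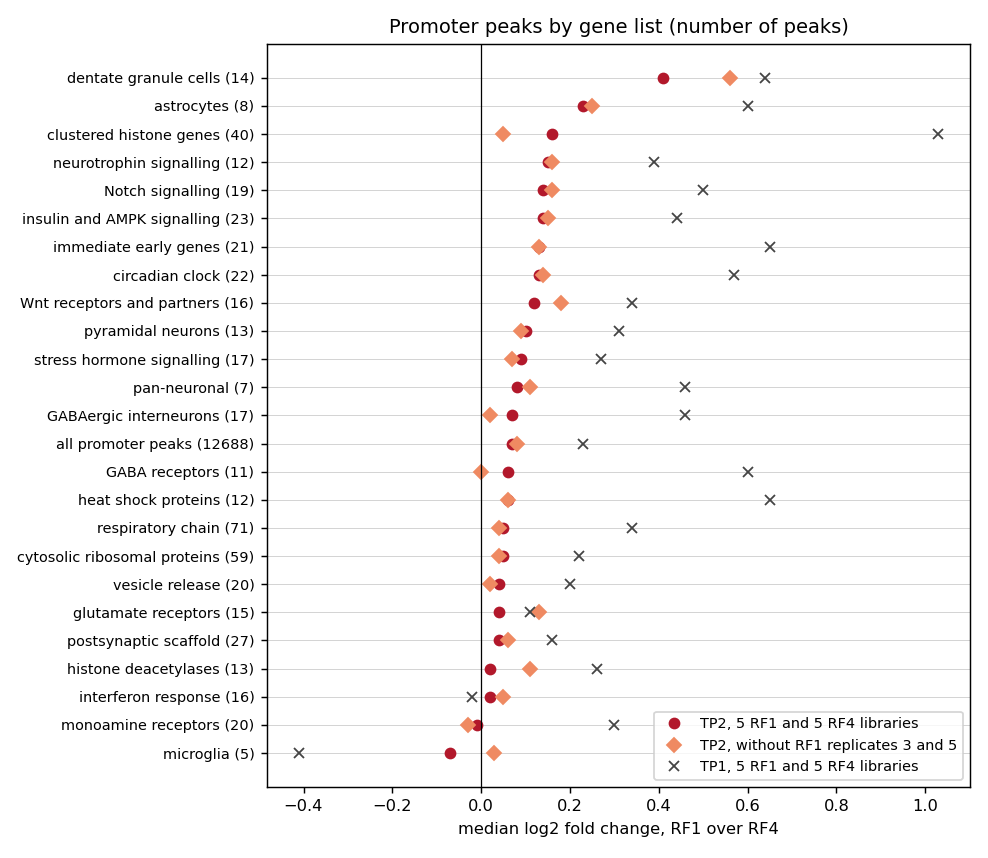
Median log2 fold change of RF1 over RF4 (x axis) over the promoter peaks of each gene list with at least 5 such peaks (y axis, number of peaks in brackets) at TP2 with all libraries, at TP2 without RF1 replicates 3 and 5 and at TP1. Dentate granule cells have the highest median at TP2 (0.41), and most lists lie further to the right at TP1.

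Without RF1 replicates 3 and 5, 4332 of 144451 peaks were DARs (3.00%), 2294 higher in RF1 (1.59%) and 2038 lower in RF1 (1.41%). Promoter peaks were again mostly higher, with 144 of 12688 promoter peaks higher in RF1 (1.13%) and 34 lower. Peaks outside genes leaned the other way, with 893 higher and 1303 lower. On the granule cell list 9 of 14 promoter peaks were DARs, all higher in RF1, with a median log2 fold change of 0.56 against 0.08 over all promoter peaks, and over promoters and gene bodies 37 of 200 peaks were DARs, all higher in RF1, against 1.51% of all such peaks. Prox1 reached 0.72 ± 0.08 (edgeR adjusted p = 1.02e-11, 3 RF1 and 5 RF4 libraries), Lct 1.03 ± 0.14 and Mettl7b 1.61 ± 0.21. In the fit on RF1 and RF4 alone, 3908 DARs were left in this comparison. Leaving out a further library gave 2358 DARs without RF1 replicate 1 and 2430 without RF1 replicate 2, and between 2358 and 4013 over all 8 libraries.

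The further promoters with the largest folds in that comparison had low levels. Higher were Ugt1a6a (log2 fold change 1.47 ± 0.35), Fam124b (1.24 ± 0.20), S100a3, a calcium-binding protein (1.21 ± 0.24), and Net1, an exchange factor for RhoA (1.15 ± 0.29). Lower were Defb29, a beta-defensin (-1.51 ± 0.28), Klrb1a, a receptor of natural killer cells (-1.41 ± 0.32), Tyr, the tyrosinase of melanin synthesis (-1.24 ± 0.26), Cyp2d26 (-1.17 ± 0.32) and Bpifa3 (-1.04 ± 0.28). Fam124b had the highest levels of these, with 4.24, 3.38 and 3.11 CPM in RF1 replicates 1, 2 and 4 and 0.799 and 1.04 CPM in RF1 replicates 3 and 5, against 1.45, 1.66, 1.59, 1.95 and 1.31 CPM in RF4. For Defb29, RF1 replicates 1, 2 and 4 had 0.606, 0.570 and 0.578 CPM and RF1 replicates 3 and 5 had 2.20 and 1.72 CPM, against 1.10, 1.90, 1.87, 1.70 and 1.61 CPM in RF4. With the left-out libraries put back, these 9 promoters were no DARs. Except for Fam124b and Defb29, each of the 9 lost its call when 1 further library was left out. Without RF1 replicate 2, Ugt1a6a had a log2 fold change of 1.09 (adjusted p = 0.106) and S100a3 had 0.95 (adjusted p = 0.0269), while Tyr had -0.92 (adjusted p = 0.0418), Bpifa3 -0.91 (adjusted p = 0.0715) and Cyp2d26 -1.08 (adjusted p = 0.0636). Without RF1 replicate 4, Net1 had 0.81 (adjusted p = 0.111) and Klrb1a -1.13 (adjusted p = 0.0234).

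Many more peaks were DARs between the same facilities before the move. The libraries of TP1 were also deeper. Total counts at TP1 were 40340957 to 61769994 in RF1 and 33663505 to 51214297 in RF4. At TP2 they were 5111223 to 35510848 in RF1 and 20022610 to 33572236 in RF4. The part of depth in the numbers of DARs was not tested. At TP1, 29037 of 144458 peaks were DARs (20.1%), 16480 higher and 12557 lower in RF1. Among promoter peaks 3201 were higher in RF1 (25.2%), with a median log2 fold change of 0.23 over all promoter peaks. Direction at TP1 varied by chromosome. Chromosome X had 1218 DARs higher and 1 lower in RF1 (median log2 fold change of its peaks 0.56). Chromosome 7 had 59 higher and 2193 lower (median -0.34). Pairs of RF1 libraries at TP1 differed by up to 23.504 times 2 binomial variances, and pairs of RF4 libraries by up to 2.575 times. The part of this spread in the numbers of DARs and of changed peaks was not tested. The difference between RF1 and RF4 changed between the TPs in 14284 of 144461 peaks (9.89%), of which 6455 changed upwards and 7829 downwards. In promoter peaks 373 changed upwards and 1871 downwards (median change -0.16). The TP2 DARs mostly kept their direction in the separate libraries of TP1. Of the 331 DARs higher in RF1 at TP2, 279 had a positive log2 fold change at TP1, and of the 110 lower in RF1, 90 had a negative one, against 49.8% of all peaks with a positive value. This was not so for the larger set without RF1 replicates 3 and 5, of whose 2294 higher DARs 1318 were positive and of whose 2038 lower DARs 828 were negative at TP1. The number of changed peaks was 8044 without RF1 replicate 1 of both TPs and 25780 without RF1 replicates 3 and 5 of TP2.

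**Figure D5:**
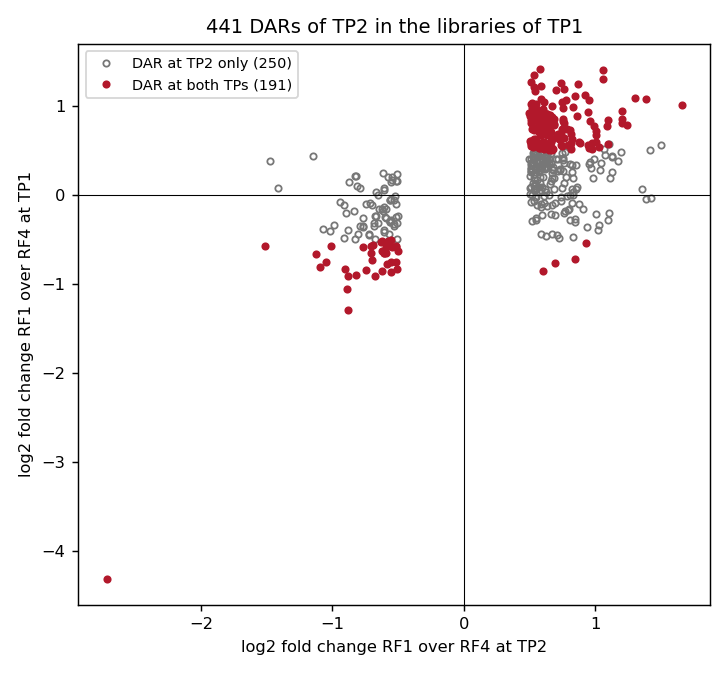
Log2 fold change of RF1 over RF4 at TP2 (x axis) and at TP1 (y axis) for the 441 DARs of TP2, 1 point per peak, with filled points for those that were DARs at both TPs. Of the 331 DARs on the right, 279 lie above 0 at TP1, and of the 110 on the left, 90 lie below 0.

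On the granule cell list the promoter DARs were higher in RF1 at both TPs. At TP1 the summed promoter level of the list was 246.3 to 261.3 CPM in RF1 and 149.3 to 154.1 CPM in RF4. Of its 14 promoter peaks 13 were DARs, all higher in RF1 (median log2 fold change 0.64), against 25.2% of all promoter peaks. Other lists also separated at TP1. Pan-neuronal promoters had 268.4 to 327.9 CPM in RF1 and 217.4 to 232.6 CPM in RF4, and pyramidal promoters 278.1 to 299.6 and 226.6 to 238.1 CPM. Interneuron promoters had 182.4 to 204.5 and 128.2 to 135.0 CPM, and astrocyte promoters 64.46 to 73.53 and 48.99 to 51.17 CPM. Microglia promoters were lower in RF1, with 24.59 to 29.46 and 29.63 to 36.69 CPM. The upstream peak of Prox1 had a log2 fold change of 0.59 ± 0.09 at TP2 and 0.77 ± 0.06 at TP1, and the change between TPs of -0.17 ± 0.11 did not pass the test (edgeR adjusted p = 0.254). The other promoter DARs of the list, at Dsp, C1ql2 and Lct, did not pass either, with changes of 0.16 ± 0.15, 0.21 ± 0.19 and 0.13 ± 0.18 (edgeR adjusted p = 0.463, 0.423 and 0.633). Rfx3 and Dock10 were the list members whose change passed in both p and size. Rfx3 had 0.17 ± 0.05 at TP2 and 0.79 ± 0.05 at TP1 (change -0.61 ± 0.07; edgeR adjusted p = 3.32e-10), and Dock10 had 0.39 ± 0.08 at TP2 and 1.02 ± 0.06 at TP1 (change -0.62 ± 0.10; edgeR adjusted p = 7.03e-07). Negative changes at Stxbp6 (-0.47 ± 0.11; edgeR adjusted p = 0.00101) and at the peaks on the starts of C1ql2 (-0.44 ± 0.12; 0.0058) and Prox1 (-0.38 ± 0.11; 0.00604) missed only the size of 0.5. For the clustered histone genes, at TP2 none of their 40 promoter peaks was a DAR (median 0.16), whereas at TP1 33 were higher in RF1 and 1 was lower (median 1.03), against 25.2% of all promoter peaks higher in RF1. The change was negative and past the test in 29 of the 40 histone peaks (median -0.83), against 14.7% of all promoter peaks. Of 22 clock gene peaks, none was a DAR at TP2 (median 0.13) and 12 were higher in RF1 at TP1 (median 0.57), and the change was negative and past the test in 7, beside the same 25.2% and 14.7% over all promoter peaks. Matn1 went the other way, with 0.71 ± 0.12 at TP2 and -0.44 ± 0.09 at TP1 (change 1.17 ± 0.16; edgeR adjusted p = 3.04e-08). Cmah had -0.94 ± 0.15 at TP2 and -0.07 ± 0.11 at TP1 (change -0.86 ± 0.18; edgeR adjusted p = 0.000205), so its difference was not detectable before the move.

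Promoters as a class took a slightly larger share of counts in RF1. The share was 26.10, 26.28, 26.29, 26.89 and 26.79% in RF1, against 25.65, 25.65, 25.70, 25.43 and 25.67% in RF4, with every RF1 library above every RF4 library. The exact permutation test, two-sided, gave p = 0.007937, the smallest 5 against 5 libraries allow, and 0.1032 after adjustment over the 26 library values tested. Of these values 2 had an unadjusted p under 0.05 and 0 an adjusted one. The median log2 fold change of a chromosome at TP2 lay between -0.05 (chromosome 7) and 0.07 (chromosome X). This leaves out chromosome Y, whose 10 peaks had a median of 0.15. At TP1 the medians lay between -0.34 (chromosome 7) and 0.56 (chromosome X).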

How the data were processed

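For each mouse, the authors dissected the ventral hippocampus of 1 hemisphere, sorted its NeuN+ nuclei and made an ATAC-seq library. The authors trimmed reads with fastp, aligned them with Bowtie2 to the GRCm38 genome, kept concordant unique alignments, handled duplicates with Picard 1.140, called peaks per library with MACS2 2.1.4, required a peak in 3 or more of a group's 5 libraries, merged the peaks over all groups and counted reads with featureCounts. The deposited table holds raw counts per merged peak and was used for all tests. A second deposited table, said to hold normalized counts, was identical to it and was not used. The deposited peak lists give for each library the MACS2 peaks with their -log10 q, from which only the presence and width of peaks were taken.

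Counts were fitted with edgeR 4.0.16 (R 4.3.3; TMM scaling, filterByExpr, robust quasi-likelihood test) over all 25 libraries of a TP with RF and replicate number as terms. The authors used a processing batch term, but whether the replicate number marks that batch is not given in the sources used here. P-values were adjusted by Benjamini and Hochberg over all peaks tested. The change between TPs was fitted over all 50 libraries. Alternatives were DESeq2 1.42.0, other scalings (RLE, loess offset), no filter, no block, RF1 and RF4 libraries alone, subtraction of region means (1 Mb bins), libraries within sampling noise joined, and each library left out. The steps were tested on simulated counts. Sampling noise was taken as up to 1.02 times 2 binomial variances over peaks with a mean count between 500 and 5000.

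Of 21900 RefSeq protein-coding genes, 17492 had a start in the promoter table given. Peaks were assigned to genes by position alone. Named promoters are the promoter DARs with the largest folds (up to 10 in each direction; predicted genes left out), DARs with the lowest adjusted p (5 in each direction), promoter DARs shared by both TPs or on the lists, and the 5 largest in each direction without RF1 replicates 3 and 5. Further promoter DARs and the gene body DAR of Stxbp6 were named after their values were seen. The comparison, the members and the gene lists were chosen with earlier results of these data known.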

Additional observations from a re-analysis of the deposited data

Results flagged for a closer look

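Differences between the TPs. The RF1 over RF4 difference changed between TP1 and TP2 in 14284 peaks by a test of the change itself. Among named peaks it changed for Matn1 (1.17, adjusted p = 3.04e-08), Xkr6 (0.71, 0.00311), Col19a1 (1.61, 0.00235), Dglucy (-0.64, 0.00135), Anxa3 (-0.64, 0.00947), Cmah (-0.86, 0.000205) and Tyr (-0.93, 0.00987), all as TP2 minus TP1 on the log2 scale with edgeR's adjusted p.

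Single libraries far from their group. Of 116 groups of 5 libraries examined, 19 held a library whose gap to its neighbour exceeded 0.71 of the group's range, where chance gives about 1 in 20. Among RF1 libraries these were replicate 3 at the Col19a1 peak (9.19 CPM), in its share of counts on chromosome Y (0.01849%), in its number of MACS2 peaks (82990) and in their median width (378 bases), replicate 4 at Jag1 (10.4 CPM), and replicate 5 in its shares of counts on chromosomes 15 (4.716%) and 19 (2.489%). Among RF4 libraries, replicate 1 stood apart in its shares on chromosomes 1 (6.519%), 3 (4.996%), 7 (6.258%), 11 (7.429%), 13 (4.024%), 14 (3.946%) and 18 (3.319%). RF4 replicate 2 did so at Matn1 (6.52 CPM), RF4 replicate 3 at Mettl7b (0.855 CPM), and RF4 replicate 4 at the Tmem176b peak (1.3 CPM), in its share of counts in promoter peaks (25.43%) and in its share on chromosome 2 (7.923%). The chromosome shares of a library depend on each other, so they are not separate observations.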

How the results depend on the processing

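The 441 DARs of RF1 over RF4 at TP2 became 28 with libraries within sampling noise joined. They became 1 in the fit on RF1 and RF4 alone and ranged between 98 and 2235 with 1 library left out. Without RF1 replicates 3 and 5, the fit on RF1 and RF4 alone kept 3148 of the 4332 DARs. Pairs of RF1 libraries at TP2 differed by up to 9.764 times 2 binomial variances, and pairs of RF4 libraries by up to 1.126 times. The causes of these numbers were not tested. With DESeq2 there were 529 DARs, of which 346 were among the 441. The count of granule cell promoter DARs, 4, was 0 with libraries joined, 0 in the fit on RF1 and RF4 alone and 1 to 6 with 1 library left out. Without RF1 replicates 3 and 5 the 4332 DARs ranged between 2358 and 4013 with 1 further library left out, and the 9 granule cell promoter DARs became 5 after subtraction of region means (1 Mb bins). At TP1 that setting gave 13127 DARs in place of 29037. The 14284 changed peaks ranged between 8044 and 20368 with 1 library left out, and were 25780 without RF1 replicates 3 and 5 at TP2, an alternative chosen after seeing the data. Of 42 single peaks recomputed, 36 kept their call with DESeq2, 41 with RLE scaling, 37 with the loess offset, 33 after subtraction of region means, 8 in the fit on RF1 and RF4 alone, and 11 (with 22 lost) with libraries joined. None of these results reversed its direction under the alternatives run.

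Same-numbered RF1 and RF4 libraries deviated from their group means with correlations of -0.044 to 0.017 at TP2 and -0.17 to 0.234 at TP1. Libraries of different number had -0.053 to 0.064 at TP2 and -0.287 to 0.279 at TP1. RF1 replicates 3 and 5 enter the RF1 mean of TP2, so these values cannot settle whether the replicate number marks a batch. Without the replicate block there were 502 DARs at TP2, 4918 without RF1 replicates 3 and 5, 28763 at TP1 and 14017 changed peaks. The depth of RF1 replicate 3 limits what this library shows: at its total of 5111223 counts, promoters near 1 CPM rest on few reads.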

Other observations

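Some genes held several DARs in 1 direction, counted over peaks within 100 kb and picked after the values were seen. Without RF1 replicates 3 and 5, peaks nearest to Gse1 held 13 DARs of 72 peaks, Glis3 10 of 46, Zbtb20 10 of 68, Maml2 9 of 36, Nrg2 8 of 29 and Prox1 7 of 19, each of these higher in RF1. Over all peaks tested in that comparison, 1.59% were DARs higher in RF1 and 1.41% were DARs lower in RF1. Zbtb20 is a transcription factor of hippocampal neurons and Nrg2 a neuregulin. Lower in RF1 were 10 of 114 peaks nearest to Tenm4, a teneurin of cell adhesion, and 7 of 65 nearest to Sox5, a transcription factor. These are the genes with 7 or more DARs in 1 direction, and none of them had a DAR in the other. Among genes with 6, Tenm3 held 6 lower DARs and 1 in the other direction. With all libraries no gene but Dsp held more than 2 DARs.

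Without RF1 replicates 3 and 5, the direction varied with the number of genes around a peak. In 1 Mb regions with 0 to 2 genes, 340 DARs were higher and 677 lower in RF1 (median log2 fold change of all peaks -0.08), and in regions with 25 or more genes 219 were higher and 43 lower (median 0.06). At TP1 the medians ran the other way, 0.20 in regions with 0 to 2 genes and -0.19 in regions with 25 or more. With all libraries of TP2 the medians of all 6 classes lay between -0.004 and 0.006.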
